A study of Ginkgo biloba with 16 samples.

Results

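The miR156, miR157, miR172 and miR529 families were examined in the vascular cambium of *Ginkgo biloba* trees of 3 age groups. Members were the entries of the deposited small RNA (sRNA) read count list whose name holds 1 of these 4 family numbers with no further digit, whatever their level. This gave 33 of the 632 entries in the list. Some entries had the same count in every library, and those with at least 10 reads in all were taken once, which left 29 distinct members among 612 distinct entries. By name, 12 distinct members were miR156, 2 were miR157, 10 were miR172 and 5 were miR529.

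In plants these families mark the passage from juvenile to adult growth. In *Arabidopsis* shoots, miR156 is abundant in young plants and represses the SQUAMOSA PROMOTER-BINDING-LIKE (SPL) transcription factors, and it declines as the shoot ages. miR157 is a close relative of miR156, and miR529, known from mosses and grasses, has a related sequence that recognizes an overlapping site in SPL transcripts. SPL proteins activate miR172 in *Arabidopsis*, which in turn represses APETALA2-like (AP2-like) factors, so that miR156 and miR172 change in opposite directions with shoot age. The vascular cambium is the layer of dividing cells that forms xylem inwards and phloem outwards.

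The sRNA libraries came from 6 trees, 1 library per tree, without treatment. VC20 denotes trees of 15 and 20 y (VC20A and VC20B), VC200 trees of 193 and 211 y (VC200A and VC200B), and VC600 trees of 538 and 553 y (VC600A and VC600B). RNA libraries were available from the same 6 trees and from 1 more tree per group, of 22, 236 and 667 y, respectively (VC20C, VC200C and VC600C). All were healthy female trees growing in natural conditions, and the cambium was taken from the trunk. The labels name stands at Anlu and Pizhou for the study as a whole, and its methods place the trees used for sequencing at Pizhou. Age, size and the history of a tree cannot be told apart in this design, and each tree is 1 individual.

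Library totals in the count list were 1184091 to 1842055 reads. A limit of 3 reads, taken here for a count of 0, corresponded to 1.63 to 2.53 RPM, the read count scaled to the library total. Members made up 0.288% of all counted reads in VC20A, 0.762% in VC20B, 0.879% in VC200A, 1.23% in VC200B, 0.655% in VC600A and 0.448% in VC600B. The scaling moved the centre of each comparison. Over all tested entries, VC600 vs VC20 had a median log2 fold change of -0.26 with TMM scaling, -0.02 with RLE size factors and -0.76 with total counts only. In VC600 vs VC200 these medians were -0.27, -0.08 and -0.46, and in VC200 vs VC20 they were -0.05, 0.01 and -0.38. Log2 fold changes below are TMM-scaled, and RPM are relative to the library total.

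Most members were rare. A single one, ath-miR156i, had no read in any library, 14 had 1 to 9 reads over the 6 libraries, 7 had 10 to 98, 3 had 105 to 417 and 4 had 1363 or more. The 4 abundant members were ath-miR172a, mtr-miR156g-5p, ath-miR156a-5p and ath-miR157a-5p, with 65712 reads together. They held 92.2% of member reads in VC20A and 98.2 to 99.5% in the other 5 libraries. The prefix of a name gives the species of the database entry that the *Ginkgo* reads matched (ath, *Arabidopsis thaliana*; mtr, *Medicago truncatula*; far, *Festuca arundinacea*; ppt, *Physcomitrella patens*), and not a *Ginkgo* locus. The filter on low counts passed 7 distinct members, which were tested, namely the 4 abundant ones, ath-miR172c, far-miR529 and ppt-miR529e. The 22 others held 247 reads in total, and the highest of them was ath-miR157d with 98 reads, of which 86 were in VC200B. Since the filter keeps an entry that is high in only 1 group, the 7 tested members are not a fair sample of all 29.

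Summed by family, miR172 and miR156 were the abundant families and miR157 and miR529 the scarce ones. Among 62 known families, miR172 ranked 10th in VC20A, 3rd in VC20B, 4th and 2nd in VC200, and 7th in both VC600 libraries. miR156 kept a narrow range of ranks, 8th in both VC20 libraries, 7th in both VC200 libraries and 6th in both VC600 libraries. miR157 ranged from 35th in VC20A to 10th in VC200B, and miR529 was 13th and 18th in VC20 and 29th and 32nd in VC600. By mean RPM, miR156 was highest in the oldest trees, miR157 and miR172 in VC200 and miR529 in the youngest trees.

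**Figure D1:**
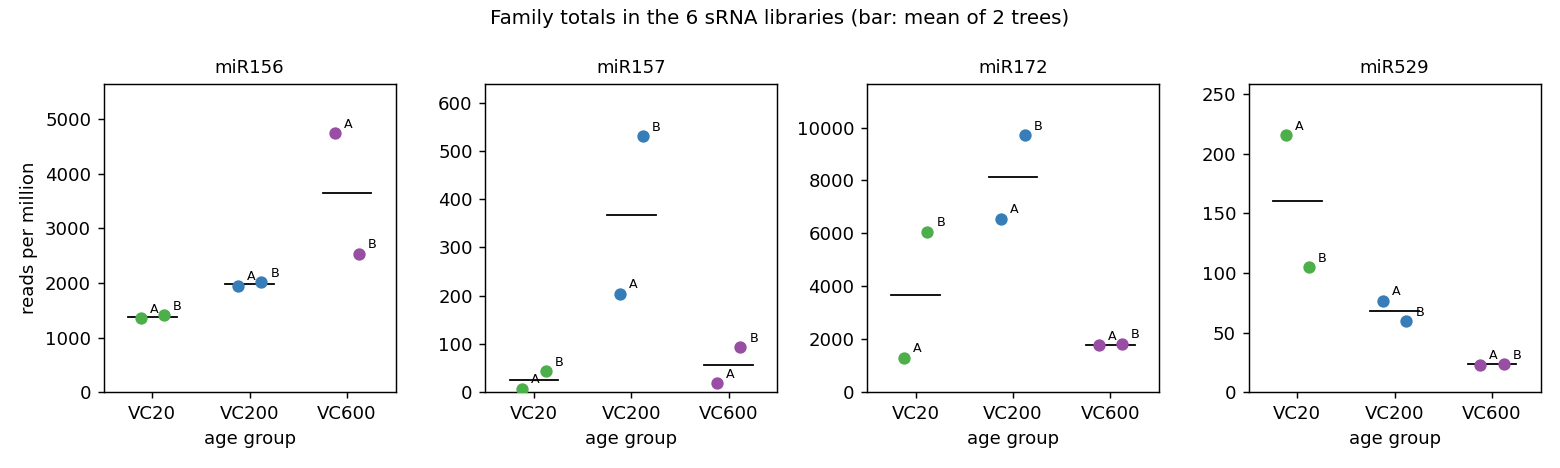
RPM (y axis, starting at 0, with a separate scale per panel) of the 4 families in the 6 sRNA libraries, by age group. Each point is 1 tree (letter A or B) and each bar the mean of 2 trees. Both VC600 trees had more miR156 and less miR529 than any other tree, and the VC20 trees differed widely in miR172.

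miR156 was the family that rose in the oldest trees. Its total was 2008 and 2294 reads in VC20A and VC20B, 2311 and 3712 in VC200A and VC200B, and 7781 and 3563 in VC600A and VC600B. The group means in RPM were 1383 ± 39.4 in VC20, 1983 ± 44.9 in VC200 and 3637 ± 1559 in VC600 (SD, n = 2), so the lowest VC600 tree, at 2535, still lay above the highest VC200 tree, at 2015. The groups did not overlap in any pair. In edgeR the family was higher in VC600 than in VC20 (log2 fold change 1.97, SE 0.34, Benjamini-Hochberg adjusted p = 0.00745). This call held in every alternative run that did not pool miR156 with unnamed entries, with log2 fold changes of 1.39 to 2.24. Pooled with miR157, miR529 and the unnamed entries described below, the difference was 0.77 and was not called (adjusted p = 0.0985 in edgeR). The miR156 family was also called higher in VC600 than in VC200 (1.09, SE 0.34, adjusted p = 0.0386 in edgeR). That second call was lost without VC20A (adjusted p = 0.0581 in edgeR), VC20B (0.0557), VC200A (0.176), VC200B (0.146) or VC600A (0.128), with total counts only (0.106), with every deposited entry summed (0.0654) and in the fit of only those 2 groups (0.0682), among 0.00279 to 0.176 over all alternatives. In VC200 vs VC20 the difference was 0.88 (SE 0.33) and did not pass the test (adjusted p = 0.215 in edgeR).

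A single entry carried the miR156 rise. The entry mtr-miR156g-5p had 1320 and 1319 reads in the VC20 trees, 1295 and 2017 in the VC200 trees, and 7358 and 3005 in the VC600 trees. This was 851 ± 56.3, 1094 ± 0.924 and 3310 ± 1658 RPM, respectively (SD, n = 2). The 4 VC20 and VC200 trees lay close together, and both VC600 trees lay above them, VC600A by more than VC600B. In edgeR it was higher in VC600 than in VC20 by 2.44 (SE 0.39, adjusted p = 0.00434) and than in VC200 by 1.75 (SE 0.38, adjusted p = 0.0143). The first call held in all alternatives, with adjusted p of 2.13e-08 to 0.0314. The second was lost without VC200A (adjusted p = 0.0726), VC200B (0.0641) or VC600A (0.0535) in edgeR, among adjusted p of 0.000101 to 0.0726 over all alternatives, while its log2 fold change stayed between 1.30 and 2.09.

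The other abundant miR156 entry did not follow it. The entry ath-miR156a-5p had 680 and 962 reads in the VC20 trees, 1004 and 1655 in the VC200 trees, and 417 and 550 in the VC600 trees. That is 525 ± 93.9, 873 ± 35.7 and 323 ± 97.1 RPM (SD, n = 2). In RPM it was thus highest in VC200 and lowest in VC600, with no overlap between groups, an order of VC20 and VC600 that rests on scaling to the library total. It passed the edgeR test in no comparison. Its log2 fold change was 1.07 (SE 0.43) in VC200 vs VC20 and -1.21 (SE 0.43, adjusted p = 0.0557 in edgeR) in VC600 vs VC200. The latter passed with total counts only, with DESeq2 and without VC600B (adjusted p 0.0274 to 0.207 over all alternatives). Between VC600 and VC20 it was -0.14 with TMM scaling, 0.08 with RLE size factors and -0.70 with total counts only, so its direction there depended on the scaling.

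Inside each library, where depth and scaling cancel, the balance of these miR156 entries differed in the oldest trees. There were 1.94 and 1.37 reads of mtr-miR156g-5p for each read of ath-miR156a-5p in the VC20 trees. The VC200 trees had 1.29 and 1.22, and the VC600 trees 17.6 and 5.46. As a share of miR156 reads, mtr-miR156g-5p made up 65.7% in VC20A (Wilson 95% interval 63.6 to 67.8), 57.5% in VC20B (55.5 to 59.5), 56.0% in VC200A (54.0 to 58.0) and 54.3% in VC200B (52.7 to 55.9). In VC600A it was 94.6% (94.04 to 95.05) and in VC600B 84.3% (83.1 to 85.5). Intervals cover counting error only and not the difference between trees. The remaining 10 distinct miR156 members were rare, at 24 reads or fewer in all, the highest being ahy-miR156a with 2, 5, 4, 6, 2 and 5 reads in VC20A, VC20B, VC200A, VC200B, VC600A and VC600B.

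**Figure D2:**
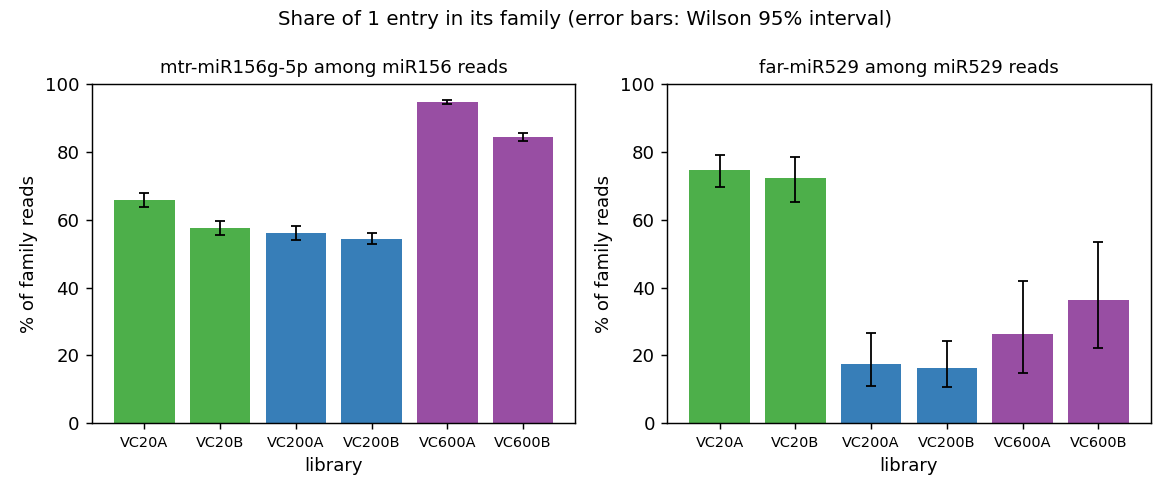
Share (y axis, % of the family's reads, from 0 to 100) of mtr-miR156g-5p among miR156 reads (left) and of far-miR529 among miR529 reads (right) in each sRNA library. Error bars are Wilson 95% intervals for counting error. The left share was 54.3 to 65.7% outside VC600 and 84.3 and 94.6% in VC600, and the right share was 72.4 and 74.6% in VC20 and 16.4 to 36.4% in the older trees.

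miR157 was the most variable family between trees. Its total was 11 and 70 reads in the VC20 trees, 242 and 976 in the VC200 trees, and 31 and 131 in the VC600 trees. Both VC200 trees lay above the other 4, and the spread within a group reached 5.80-fold in VC20, 2.59-fold in VC200 and 4.94-fold in VC600 (in RPM). Nearly all of these reads were of ath-miR157a-5p, with 11, 67, 236, 890, 31 and 128 reads in VC20A, VC20B, VC200A, VC200B, VC600A and VC600B. This is 24.3 ± 23.9 RPM in VC20, 341 ± 201 in VC200 and 55.0 ± 51.0 in VC600 (SD, n = 2). Its mean was 14.0-fold higher in VC200 than in VC20, yet the edgeR test missed the threshold (log2 fold change 4.15, SE 1.06, adjusted p = 0.0531). DESeq2, the fit without a filter and the fits without VC600A or VC600B put it past the threshold (adjusted p 9.19e-07 to 0.292 over all alternatives). Its log2 fold change was 3.38 without VC20A and 5.82 without VC20B. The family total was at 4.24 (SE 1.16, adjusted p = 0.0863 in edgeR) and passed with DESeq2 and in the fit of only those 2 groups (adjusted p 0.000982 to 0.341 over all alternatives).

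The second miR157 entry, ath-miR157d, had 0, 3, 6, 86, 0 and 3 reads in the same order of libraries and was not tested. Its reads were 8.81% of miR157 reads in VC200B (Wilson 95% interval 7.19 to 10.8) and 2.48% in VC200A (1.14 to 5.30). A similar concentration in VC200B was seen for zma-miR156k-5p, with 16 of its 18 reads there. Libraries VC20A and VC600A had 0 reads of ath-miR157d, where the limit of 3 reads taken for a count of 0 is 2.03 and 1.83 RPM.

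miR529 was the family that fell in the oldest trees. Its total was 319 and 170 reads in the VC20 trees, 91 and 110 in the VC200 trees, and 38 and 33 in the VC600 trees. The means in RPM were 160 ± 78.3, 68.3 ± 12.1 and 23.3 ± 0.233, respectively (SD, n = 2), with no overlap between any 2 groups. In edgeR the family was lower in VC600 than in VC20 (log2 fold change -2.16, SE 0.51, adjusted p = 0.0178). Leaving out VC20A (adjusted p = 0.0727), VC600A (0.0720) or VC600B (0.0525) ended that call, among adjusted p of 0.00303 to 0.0727 over all alternatives, and the value ranged from -2.77 to -1.52. The differences in VC200 vs VC20 (-0.88, SE 0.49) and VC600 vs VC200 (-1.28, SE 0.51) did not pass, with edgeR adjusted p of 0.407 (0.241 to 0.803 over all alternatives) and 0.0792 (0.0455 to 0.265).

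The main miR529 entries had different profiles, far-miR529 being low in both older groups and ppt-miR529e in VC600. The entry far-miR529 had 238 and 123 reads in the VC20 trees, 16 and 18 in the VC200 trees, and 10 and 12 in the VC600 trees, or 118 ± 60.1, 11.6 ± 2.65 and 7.31 ± 1.73 RPM (SD, n = 2). Every older tree was far below both VC20 trees, and the 4 older trees were close to each other. In edgeR it was lower by -3.03 in VC200 vs VC20 (SE 0.58, adjusted p = 0.0242) and by -3.49 in VC600 vs VC20 (SE 0.60, adjusted p = 0.00508). The VC600 call held in every alternative (adjusted p 1.24e-05 to 0.0304). The VC200 call was lost without VC20A (adjusted p = 0.114), VC200A (0.0852) or VC200B (0.0992), with values of -3.47 to -2.36 and adjusted p of 0.000137 to 0.114 over all alternatives.

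The reads of ppt-miR529e were 80 and 47 in the VC20 trees, 71 and 92 in the VC200 trees, and 27 and 21 in the VC600 trees, or 41.5 ± 17.7, 55.0 ± 7.08 and 15.7 ± 1.07 RPM (SD, n = 2). VC20 and VC200 trees overlapped, and both VC600 trees were below them. It was called lower in VC600 than in VC200 (log2 fold change -1.61, SE 0.49, adjusted p = 0.0331 in edgeR), a call that was lost when any of the 4 VC200 and VC600 libraries was left out (adjusted p 0.0783 to 0.120, and 0.0229 to 0.120 over all alternatives). Its VC600 vs VC20 value was -0.89 (SE 0.49) and was not called in edgeR (adjusted p = 0.162, with 0.0427 to 0.628 over all alternatives).

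The make-up of miR529 therefore differed between young and older trees. For each read of ppt-miR529e there were 2.98 and 2.62 reads of far-miR529 in the VC20 trees, but 0.225 and 0.196 in the VC200 trees and 0.370 and 0.571 in the VC600 trees. The share of far-miR529 was 74.6% (Wilson 95% interval 69.6 to 79.1) in VC20A and 72.4% (65.2 to 78.5) in VC20B. It was 17.6% (11.1 to 26.7) and 16.4% (10.6 to 24.4) in VC200, and 26.3% (15.0 to 42.0) and 36.4% (22.2 to 53.4) in VC600, where the totals were only 38 and 33 reads. The other 3 miR529 entries, aqc-miR529, ppt-miR529a and ppt-miR529d, had 1, 1 and 4 reads.

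miR172 held the most reads over the 6 libraries and differed widely between the 2 young trees. Its total was 1926 reads in VC20A but 9857 in VC20B, 7769 and 17901 in the VC200 trees, and 2906 and 2569 in the VC600 trees. The means in RPM were 3682 ± 3368 in VC20, 8140 ± 2232 in VC200 and 1799 ± 40.6 in VC600 (SD, n = 2). VC20A, the youngest tree, was the lowest of the 6 and VC20B lay 4.66-fold above it, just under VC200A, while the VC600 trees differed by 1.03-fold. VC200 and VC20 trees did not overlap, whereas both VC600 trees fell between VC20A and VC20B. No comparison of the family total passed in edgeR. In VC200 vs VC20 its log2 fold change was 1.53 (SE 0.66, adjusted p = 0.272), and it was 0.74 without VC20A and 2.89 without VC20B (adjusted p = 0.0761 for the latter, with 0.0761 to 0.656 over all alternatives). The largest difference was VC600 vs VC200 (log2 fold change -1.92, SE 0.67, adjusted p = 0.0541), which passed with total counts only, in the fit of only those 2 groups, and without VC20A or VC20B (adjusted p 0.02004 to 0.205 over all alternatives).

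Almost every miR172 read, 99.4 to 99.7% in each library, was of ath-miR172a. It had 1921, 9823, 7735, 17838, 2897 and 2553 reads in VC20A, VC20B, VC200A, VC200B, VC600A and VC600B, or 3670 ± 3356, 8108 ± 2228 and 1790 ± 36.4 RPM in VC20, VC200 and VC600 (SD, n = 2). In edgeR it was called lower in VC600 than in VC200 (log2 fold change -1.97, SE 0.62, adjusted p = 0.0360). Without VC200A, VC200B, VC600A or VC600B the adjusted p was 0.0801, 0.106, 0.158 and 0.113, and with RLE size factors it was 0.0509 (8.52e-05 to 0.158 over all alternatives). The value itself moved little, from -2.25 to -1.68. In VC200 vs VC20 its log2 fold change was 1.497 (SE 0.61) and not called in edgeR (adjusted p = 0.231). That value passed without VC20B (2.96, adjusted p = 0.0375) and with no filter (adjusted p = 0.00369), among 0.00369 to 0.471 over all alternatives, and was 0.76 without VC20A. In VC600 vs VC20 the value was -0.48 (SE 0.60) with all libraries and 0.996 without VC20B, so that its direction rested on that tree, and neither passed in edgeR (adjusted p = 0.542 and 0.115, with 0.0653 to 0.806 over all alternatives).

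The entry ath-miR172c had a near constant ratio to ath-miR172a, at a far lower level. It had 4 and 21 reads in the VC20 trees, 22 and 42 in the VC200 trees, and 7 and 9 in the VC600 trees. In every library it was 0.208 to 0.351% of the reads of the pair, and the 6 Wilson 95% intervals, from 0.0808 to 0.666% at their extremes, all overlapped. No comparison was called in edgeR, the nearest being VC600 vs VC200 at -1.75 (SE 0.72, adjusted p = 0.0853, with 0.04202 to 0.286 over all alternatives). Against VC20, its value in VC600 was close to 0 with TMM scaling (-0.02), 0.19 with RLE size factors and -0.57 with total counts only. The 8 other distinct miR172 entries had 1 to 23 reads in all.

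**Figure D3:**
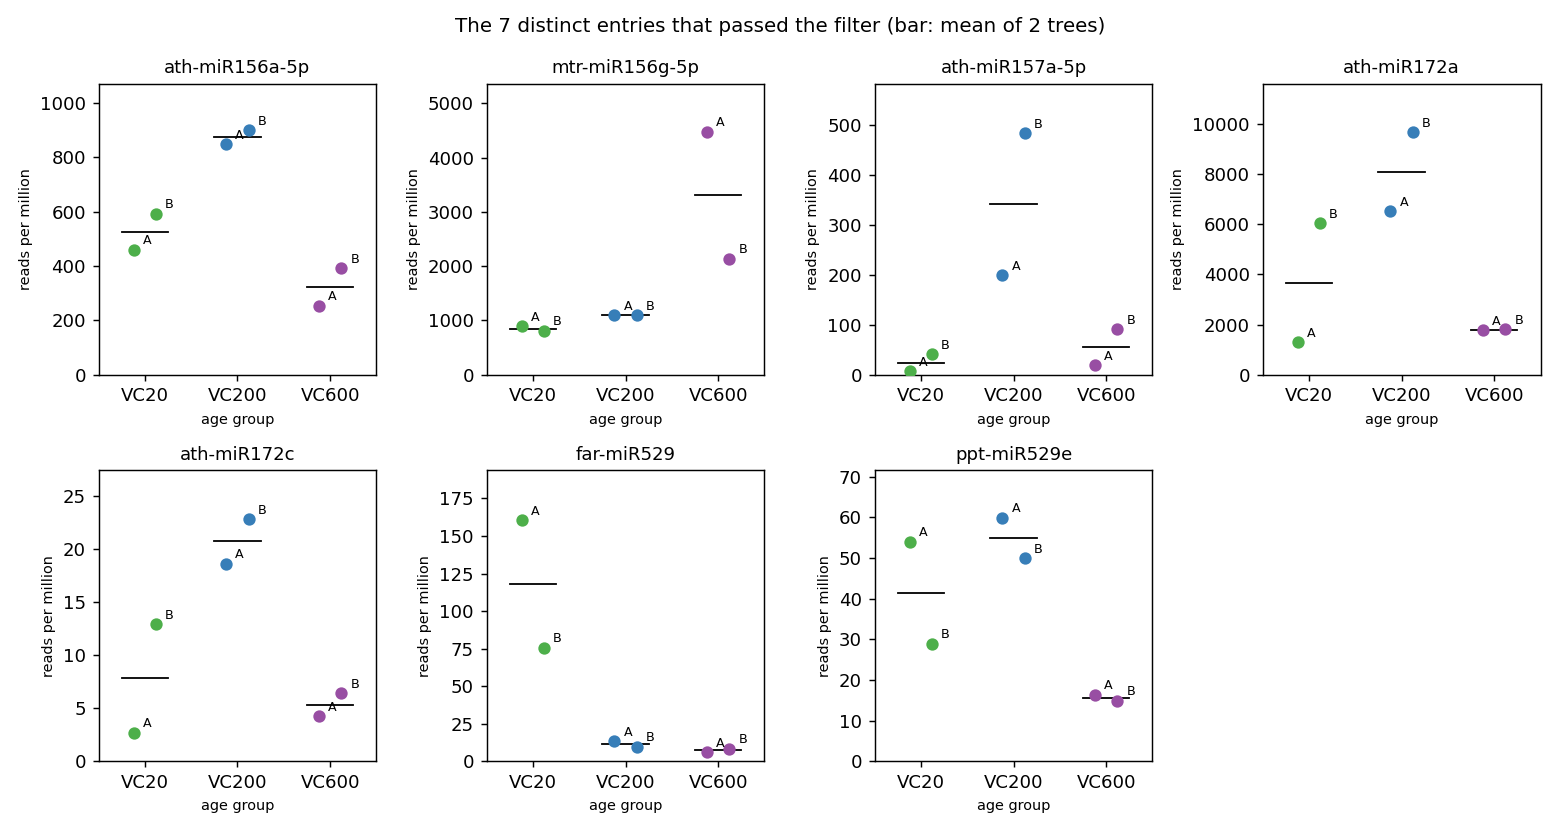
RPM (y axis, starting at 0, with a separate scale per panel) of the 7 tested members in the 6 sRNA libraries. Each point is 1 tree (letter A or B) and each bar the mean of 2 trees. Both VC600 trees were highest for mtr-miR156g-5p and lowest for ath-miR156a-5p and ppt-miR529e, and far-miR529 was high in the VC20 trees only.

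The number of members called was read against the share called among all tested entries. In VC200 vs VC20, 1 of the 7 tested members was called (far-miR529), where edgeR called 7.87% of 343 distinct entries. In VC600 vs VC20, 2 of 7 were called (mtr-miR156g-5p higher and far-miR529 lower), where 46.4% of entries were called. In VC600 vs VC200, 3 of 7 were called (mtr-miR156g-5p higher, ath-miR172a and ppt-miR529e lower), where 40.8% were called. In the comparisons with VC600, a call was thus common among all entries. The median log2 fold change of the 7 members was 1.07 in VC200 vs VC20, -0.14 in VC600 vs VC20 and -1.61 in VC600 vs VC200, against -0.05, -0.29 and -0.32 over all distinct entries. For family totals, 0 of 4 were called in VC200 vs VC20 (background 4.58% of 284 families and single entries), 2 of 4 in VC600 vs VC20 (42.3%) and 1 of 4 in VC600 vs VC200 (40.8%). In the first of these comparisons miR156 and miR157 had an unadjusted p under 0.05 in edgeR, and DESeq2 called 1 family, miR157. The 3 comparisons share libraries and are not independent of each other.

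Within a library, the balance between miR156 and miR172 differed between the older groups. There were 1.04 miR156 reads per miR172 read in VC20A and 0.233 in VC20B, 0.297 and 0.207 in VC200, and 2.68 and 1.39 in VC600. miR172 thus outnumbered miR156 in VC20B and both VC200 trees, and miR156 outnumbered miR172 in both VC600 trees and, by little, in VC20A. The mean log2 ratio was -1.02 ± 1.53 in VC20, -2.01 ± 0.37 in VC200 and 0.95 ± 0.67 in VC600 (SD, n = 2). VC600 did not overlap with either younger group. The difference from VC200 was 2.96 and from VC20 1.97, but with 2 trees against 2 the two-sided exact permutation test cannot go below p = 0.3333, the value it gave for both. VC200 and VC20 overlapped (difference -0.99, exact permutation p = 0.667).

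Between 2 families that share predicted SPL targets, the ratio of miR156 to miR529 was higher in each older group. There were 6.29 and 13.5 miR156 reads per miR529 read in the VC20 trees, 25.4 and 33.7 in the VC200 trees and 205 and 108 in the VC600 trees. The mean log2 ratio was 3.20 ± 0.78, 4.87 ± 0.29 and 7.22 ± 0.65, respectively (SD, n = 2), and no 2 groups overlapped. For miR157 the order was different. miR156 outnumbered it 183-fold and 32.8-fold in VC20, 9.55-fold and 3.803-fold in VC200, and 251-fold and 27.2-fold in VC600, so that the VC200 trees lay below the other 4. In all, 6 pairs of families were compared in 3 pairs of groups. The exact permutation p was 0.3333 in 14 of these 18 comparisons and 0.6667 or 1 in the others, and adjusted values cannot be lower.

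**Figure D4:**
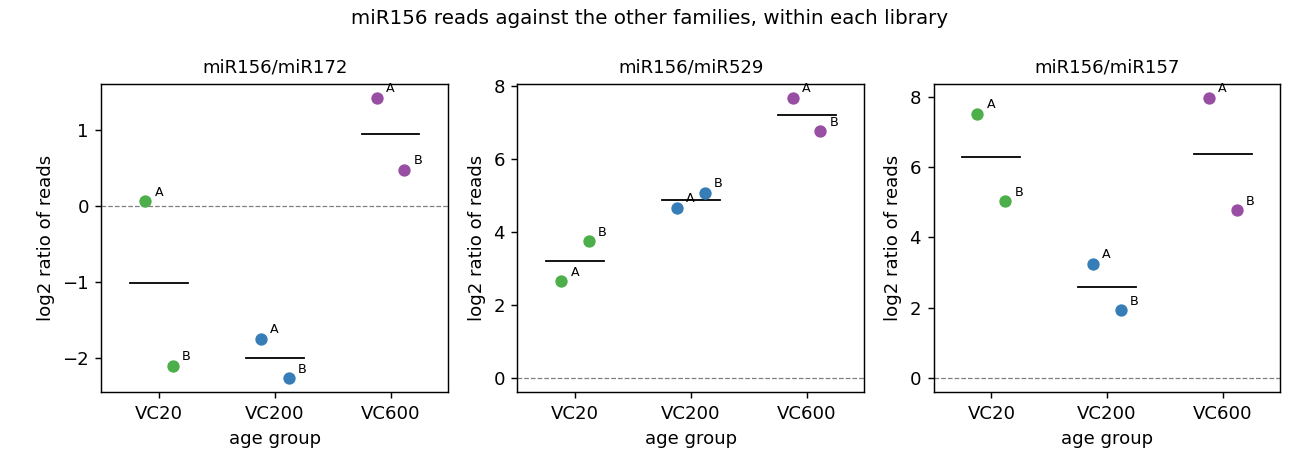
Log2 ratio of miR156 reads to miR172, miR529 and miR157 reads (y axis) within each of the 6 sRNA libraries. Each point is 1 tree, each bar the mean of 2 trees, and the dashed line marks equal reads. The ratio to miR172 was above 0 in both VC600 trees and below 0 in both VC200 trees, the ratio to miR529 was higher in each older group, and the ratio to miR157 was lowest in VC200.

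The border between miR156 and miR157 is not sharp in these files. Of the 4 pairs of members with the same count in all 6 libraries, 2 join a miR157 name to a miR156 name: ath-miR157a-5p with hbr-miR156 (1363 reads) and ath-miR157d with gma-miR156g (98 reads). The other 2 pairs stay inside a family, ath-miR172e-3p with aly-miR172e-3p (23 reads) and stu-miR156f-5p with cca-miR156b (18 reads). Both mixed pairs were counted here under miR157. Counted under miR156 instead, they raised that family in VC200B from 3712 to 4688 reads and lowered its difference in VC600 vs VC200 to 0.97, which did not pass (adjusted p = 0.0573 in edgeR, with 0.00279 to 0.176 over all alternatives). The names of a pair did not share all predicted targets. The entries ath-miR157a-5p and hbr-miR156 were paired with 12 and 31 genes, 12 of them in common, and ath-miR157d and gma-miR156g with 17 and 15, 11 in common.

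The deposited list of predicted pairs of miRNA and gene holds 3078 genes, and 184 of them were paired with a member. By family, miR156 entries were paired with 98 genes, miR172 entries with 72, miR529 entries with 19 and miR157 entries with 18. No gene was paired both with miR172 and with another of the 4 families. In contrast, 7 genes were paired with miR156, miR157 and miR529 alike, and 4 of these are annotated as SPL genes, *Gb_02576* and *Gb_27198* (SPL12), *Gb_23724* (SPL3) and *Gb_26599* (SPL7). The genes *Gb_02576*, *Gb_23724* and *Gb_27198* were each paired with 15 miR156, 2 miR157 and 5 miR529 entries, that is, with every member of these families. The other 3 shared genes, *Gb_26524*, *Gb_32703* and *Gb_38014*, have no annotation in the list used here. Of these, *Gb_32703* and *Gb_38014* were likewise paired with 15 miR156, 2 miR157 and 5 miR529 entries, so that full pairing was not particular to the SPL-annotated genes. These are predictions from sequence and no measure of cleavage.

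Transcript levels of these targets came from the RNA libraries, in FPKM, a fragment count scaled to gene length and library size. No gene of the SPL, AP2-like and LEAFY-like lists was called in limma in any comparison, among 9 tested of 12 listed. The background was 0.99% of 21924 genes in VC200 vs VC20, 0.00912% in VC600 vs VC20 and 0.00456% in VC600 vs VC200. An unadjusted p under 0.05 was found for 2, 2 and 1 of the 9, and edgeR on fragment numbers recovered from FPKM also called 0 in each comparison. The 3 listed genes that were not tested, *Gb_02576*, *Gb_26599* and the LEAFY-like *Gb_05859*, are listed at 0 in all 9 libraries.

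The 2 expressed targets annotated as SPL genes were at similar levels in the 3 groups. *Gb_27198* (SPL12; scaffold4721, 264884 to 271959, plus strand) had 15.9, 20.1 and 14.4 FPKM in VC20A, VC20B and VC20C, 16.7, 15.7 and 11.04 in VC200A, VC200B and VC200C, and 16.6, 19.8 and 23.0 in VC600A, VC600B and VC600C. The 3 groups overlapped. On the log2(FPKM + 1) scale its differences were -0.21 in VC200 vs VC20, 0.23 in VC600 vs VC20 and 0.44 in VC600 vs VC200 (SE 0.21 each), none of which passed in limma (adjusted p = 0.605, 0.882 and 0.526). *Gb_23724* (SPL3; scaffold3961, 257223 to 262726, minus strand) had 18.7, 20.6 and 20.0 FPKM in the VC20 trees A, B and C, 18.04, 18.5 and 40.2 FPKM in those of VC200, and 14.8, 23.3 and 17.8 FPKM in those of VC600. The value of VC200C stood alone. The difference in VC200 vs VC20 was 0.26 (SE 0.30, adjusted p = 0.651 in limma) and -0.10 without VC200C, a library whose gene profile had Spearman correlations of 0.830 to 0.887 with the other libraries, against 0.911 or more among those. Neither *Gb_32703* nor *Gb_38014*, paired with the same entries but without annotation here, was called. Their differences were -0.17 and -0.39 in VC200 vs VC20, 0.20 and -0.09 in VC600 vs VC20, and 0.37 and 0.30 in VC600 vs VC200.

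Of the 4 SPL genes with no member among their predicted partners, all were also uncalled. *Gb_00228* (SPL1) was at 48.1 ± 8.13, 61.8 ± 3.68 and 51.0 ± 5.68 FPKM and *Gb_03922* (SPL6) at 23.6 ± 2.08, 31.7 ± 3.88 and 33.8 ± 3.07 FPKM in VC20, VC200 and VC600, respectively (SD, n = 3). For *Gb_03922* the log2(FPKM + 1) difference was 0.41 (SE 0.15, adjusted p = 0.190 in limma) in VC200 vs VC20 and 0.50 (adjusted p = 0.559) in VC600 vs VC20, with every older tree above every VC20 tree. *Gb_15605* (SPL8) was at 25.8 to 28.9 FPKM and *Gb_26596* (SPL7) at 1.13 to 1.63 FPKM on average in the 3 groups. *Gb_26596* and the predicted target *Gb_26599* lie over each other on opposite strands of scaffold4577 (1443490 to 1446120 and 1443608 to 1446108), and without knowing whether strand was used in counting, their reads cannot be told apart.

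The miR172 side showed the largest transcript difference of the listed genes. *Gb_00766*, annotated as the floral homeotic protein APETALA 2 (scaffold1027, 4224883 to 4232540, plus strand) and paired with 2 miR172 entries, had 21.9, 27.7 and 39.0 FPKM in VC20A, VC20B and VC20C. It had 8.72, 6.04 and 5.78 in the VC200 trees and 10.3, 21.0 and 5.45 in the VC600 trees. Every older tree was below every VC20 tree, and the VC600 trees spread from the level of VC200 almost to that of VC20A. On the log2(FPKM + 1) scale the difference was -1.94 in VC200 vs VC20 (SE 0.42, adjusted p = 0.0629 in limma), -1.35 in VC600 vs VC20 (adjusted p = 0.559) and 0.60 in VC600 vs VC200 (adjusted p = 0.652). The first passed in the fit of those 2 groups alone (adjusted p = 0.0490) and without VC600B (0.0469) or VC600C (0.0483), among 0.0469 to 0.179 over all alternatives. In the 6 trees with both kinds of library, ath-miR172a stood at 1297, 6043, 6532, 9684, 1765 and 1816 RPM in VC20A, VC20B, VC200A, VC200B, VC600A and VC600B, beside *Gb_00766* levels of 21.9, 27.7, 8.72, 6.04, 10.3 and 21.0 FPKM. The 2 trees highest in ath-miR172a were the 2 lowest in *Gb_00766*, while VC20B was high in both and VC600A low in both. Whether ath-miR172a is 1 of the 2 entries paired with *Gb_00766* is not given here.

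**Figure D5:**
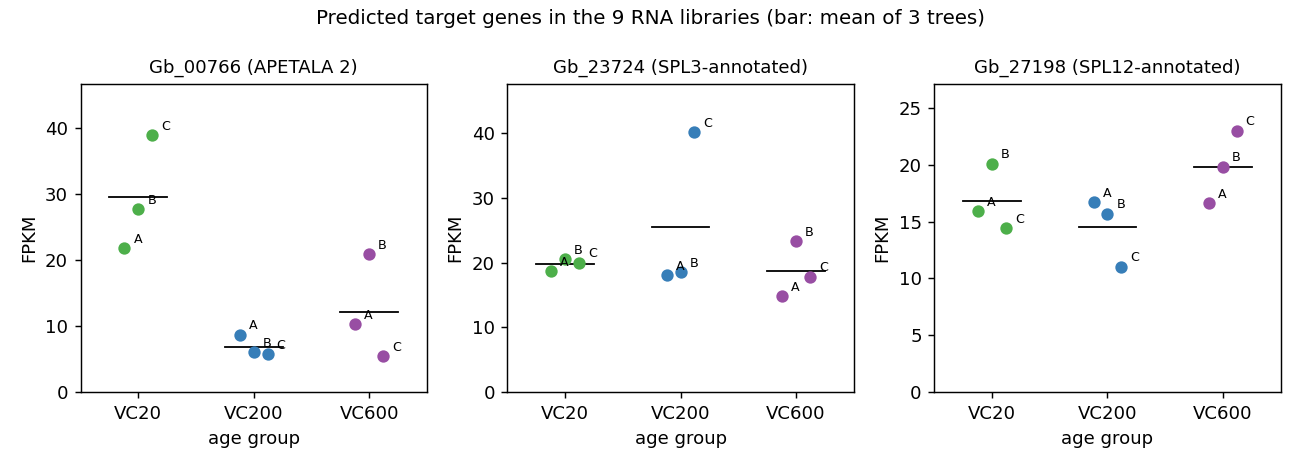
FPKM (y axis, starting at 0, with a separate scale per panel) of the 3 expressed predicted targets on the lists, in the 9 RNA libraries. Each point is 1 tree (letter A, B or C) and each bar the mean of 3 trees. APETALA 2 (*Gb_00766*) was at 21.9 to 39.0 FPKM in the VC20 trees and at 5.45 to 21.0 FPKM in the older trees, while the SPL genes overlapped between groups.

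The other AP2-like genes are annotated as PLT1 and AIL5, factors of the AINTEGUMENTA type that promote meristem growth in *Arabidopsis*, and neither was paired with a member. *Gb_02968* (PLT1) was at 4.06 ± 1.87, 2.13 ± 2.13 and 4.80 ± 1.94 FPKM and *Gb_24420* (AIL5) at 1.502 ± 1.04, 0.682 ± 0.916 and 1.99 ± 0.396 FPKM in VC20, VC200 and VC600 (SD, n = 3). Neither was called.

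Over whole sets of predicted targets no gene was called. Of all genes, 0.99% were called in VC200 vs VC20, 0.00912% in VC600 vs VC20 and 0.00456% in VC600 vs VC200. At such shares, few or no calls are due in sets of this size. Among miR156 targets, 66 of 98 genes were tested and 0 were called in limma in any comparison, with a median log2(FPKM + 1) difference of -0.21 in VC200 vs VC20, -0.02 in VC600 vs VC20 and 0.12 in VC600 vs VC200. Over all 21924 genes the medians were -0.12, -0.02 and 0.11. Among miR172 targets, 40 of 72 were tested and 0 called, with medians of -0.04, -0.07 and 0.10. Of miR157 and miR529 targets, 9 each were tested and 0 called. At an unadjusted p under 0.05 in VC200 vs VC20 there were 12 miR156 and 8 miR172 targets, or 18.2% and 20.0% of those tested, beside 20.1% of all genes. In VC600 vs VC20 the miR172 targets had 7 such genes, or 17.5%, beside 6.78% of all genes, and the miR156 targets 3, or 4.55%. In VC600 vs VC200 the miR172 targets had 1, or 2.5%, and the miR156 targets 3, or 4.55%, beside 10.2% of all genes. The most miR172 entries paired with a gene were 10, for *Gb_30123* and *Gb_33988*, both without annotation in the list used here. *Gb_30123* was at 32.5 ± 3.24, 17.7 ± 1.48 and 20.4 ± 6.18 FPKM in VC20, VC200 and VC600 (SD, n = 3). Its difference was -0.84 (SE 0.21, adjusted p = 0.0874 in limma) in VC200 vs VC20 and -0.68 (adjusted p = 0.559) in VC600 vs VC20. *Gb_33988* was lower throughout, at 2.20 ± 1.14, 1.43 ± 0.435 and 0.579 ± 0.473 FPKM, respectively (SD, n = 3). Its difference was -0.34 (SE 0.34, adjusted p = 0.591 in limma) in VC200 vs VC20 and -0.98 (adjusted p = 0.612) in VC600 vs VC20. Of the 5 tested genes paired with at least 5 miR172 entries, 3 were higher and 2 lower in VC200 vs VC20, with a median difference of 0.49. In each of the other comparisons 1 was higher and 4 were lower, with medians of -0.18 in VC600 vs VC20 and -0.65 in VC600 vs VC200.

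Markers of the cell types that such a sample can hold were read in the same RNA libraries. The 5 cambium genes (2 WOX4 and 3 HB-8 genes) summed to 78.2 to 161 FPKM in VC20, to 16.9 to 110 FPKM in VC200 and to 63.0 to 147 FPKM in VC600. They were lowest in VC200C, where the WOX4 gene *Gb_12565* was listed at 0. The 3 secondary-wall cellulose synthase genes of xylem (IRX1 and IRX3) had sums of 0.111 to 6.82 FPKM in the VC200 trees, below the 23.1 to 74.9 FPKM of VC20 and the 8.43 to 41.2 FPKM of VC600. The phloem gene APL (*Gb_13931*) was at 13.6 to 17.5, 32.4 to 60.6 and 9.48 to 27.8 FPKM, and 2 chlorophyll a-b binding protein genes summed to 22.9 to 31.8, 38.4 to 48.2 and 31.7 to 58.2 FPKM. None of these 11 genes was called in limma in the comparisons here, and APL and *Gb_10163*, one of the chlorophyll-binding genes, were annotated from a list that the study drew from these same libraries. By group, VC200 had the most miR172 and miR157 and also the least IRX and the most APL transcript. Tree by tree this did not hold throughout. VC20A and VC20B had IRX sums of 70.3 and 74.9 FPKM, but 1300 and 6064 RPM of miR172. These markers were measured in the RNA libraries and not in the sRNA libraries. The part of cell composition in the miRNA differences was not tested, and in whole tissue, fewer cells of a type and less RNA per cell cannot be told apart.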

How the data were processed

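Cambium of *G. biloba* was sequenced by the authors as 6 sRNA libraries, 9 RNA libraries and 1 degradome library, of which the last was not analysed here. For sRNA, the authors matched size-selected reads to miRBase with a modified miRDeep2, removed other RNA classes, predicted further entries without a family name and deposited a raw read count per entry and library. For RNA, the authors deposited FPKM per gene. The paper names HISAT and the *G. biloba* genome of GigaDB, whereas the submitters' processing notes list TopHat2 2.0.12 and Cufflinks 2.1.1. Coordinates are those of the deposited gene list. Target pairs were predicted by the authors with psRobot and TargetFinder.

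Counts were tested in edgeR 4.0.16 (R 4.3.3; filterByExpr, TMM, quasi-likelihood F test, 1 fit of 6 libraries over all 632 entries, 357 passing the filter). The SE is the log2 fold change divided by the root of F. The background shares count entries of equal counts once. Family totals were tested in a table of 418 rows, in which known entries were summed by number and the unnamed entries kept single. FPKM was tested in limma 3.58.1 (trend) on log2(FPKM + 1), for genes that reached 1 FPKM in 3 or more libraries. This scale understates changes of low genes. Calls required a Benjamini-Hochberg adjusted p (over all features tested) under 0.05 and a log2 fold change over 1 (genes, at least 1) either way. FPKM times length fell on whole multiples of 1 unit for 100.0% of values above 0 of reference genes (tolerance 0.02), which implies 15732412 to 18811771 fragments per library.

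Every member that passed the filter is named, and of the others the highest. Genes named by rule are listed genes predicted as targets with a mean of at least 1 FPKM. *Gb_30123*, *Gb_33988*, the shared genes without annotation and the other listed genes were named after their values were seen. Annotation came from part of the study's target list, so that other family members may lack one. The members and lists were chosen with earlier results of these data known. The letters A, B and C name different trees in each group and do not pair them. Ratios were compared by two-sided exact permutation tests over libraries. With 2 trees per group, p values rest on the spread between single trees. Procedures were tested on simulated data. Alternatives were DESeq2 1.42.0, no filter on low values, RLE size factors, total counts only, a fit of the 2 groups alone, dropping the fold limit, identical entries collapsed, other family assignments, each library left out, a replicate block, and for genes a pseudocount of 0.1 and quantile normalization. A further 2 were chosen after seeing the data, edgeR on recovered fragments and pooling 5 unnamed entries with miR156, miR157 and miR529. Ranges over all alternatives for miR156, miR157 and miR529 leave out this pooling, which keeps no separate total of these families. Python 3.11.15, pandas 2.3.3, numpy 2.4.6, scipy 1.17.1 and matplotlib 3.10.9 were used.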

Additional observations from a re-analysis of the deposited data

Results flagged for a closer look

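In the count list, 5 entries with no family name were paired with the same 4 SPL genes as miR156, miR157 and miR529, and were outside the comparisons above because the families were chosen by name. Their reads over the 6 libraries were 10876 for novel_61, 3358 for novel_107, 1216 for novel_124, 851 for novel_142 and 10 for novel_168. The first 4 were above the limit taken for a count of 0 (3 reads) in every library, and novel_168, with 0 to 3 reads, was above it in no single library. The entry novel_61 had 3931 and 3017 reads in the VC20 trees, 617 and 1208 in the VC200 trees, and 1067 and 1036 in the VC600 trees, so both VC20 trees lay above the 4 older ones. In edgeR with Benjamini-Hochberg adjustment it was lower by -1.62 (SE 0.40, adjusted p = 0.0477) in VC200 vs VC20 and by -1.17 (SE 0.39, adjusted p = 0.0399) in VC600 vs VC20. The entry novel_107 had 1048, 458, 193, 165, 961 and 533 reads in VC20A, VC20B, VC200A, VC200B, VC600A and VC600B, and was higher in VC600 than in VC200 (2.103, SE 0.58, adjusted p = 0.0245 in edgeR). The entries novel_124 and novel_142 were called in no comparison.

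Together these 5 entries made up 69.9 and 60.7% of the reads pooled with miR156, miR157 and miR529 in VC20A and VC20B, 28.0 and 27.0% in VC200, and 23.9 and 31.3% in VC600. The pool stood at 5238, 3972, 3100, 3567, 6286 and 3860 RPM in VC20A, VC20B, VC200A, VC200B, VC600A and VC600B. VC600 and VC20 overlapped in it. As 1 feature it was called in no comparison in edgeR, with log2 fold changes of -0.19 (SE 0.33, adjusted p = 0.786) in VC200 vs VC20, 0.77 (SE 0.33, adjusted p = 0.0985) in VC600 vs VC20 and 0.96 (SE 0.33, adjusted p = 0.0579) in VC600 vs VC200.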

How the results depend on the processing

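Of the results for tested members, 247 entry values, 164 family values and 138 gene values kept direction and side of the threshold under the alternatives, while 17, 10 and 3 newly passed, 17, 14 and 0 no longer passed and 12, 1 and 3 reversed. Where a library is left out, its group has 1 sRNA library, which is assumed to vary like the others. Member entries called in VC200 vs VC20 numbered 1, but 3 with DESeq2, 5 with no filter and 0 to 2 with a library left out. In VC600 vs VC200 they numbered 3, but 5, 7 and 0 to 3, respectively. Over all entries, the main fit called 29 of 357 in VC200 vs VC20 and 144 of 357 in VC600 vs VC200. DESeq2 called 37 and 153 of 602 there, and the fit with no filter 54 and 179 of 602. DESeq2 and the fit with no filter also took in rare members, beyond the 7 tested in the main fit. Families called in VC200 vs VC20 numbered 0, but 1 with DESeq2 (28 of 413 over all rows) or in the fit of 2 groups (22 of 273). In VC600 vs VC20 they numbered 2, but 0 of the 2 features left after pooling the unnamed entries, and 1 to 2 with a library left out. In VC600 vs VC200 they numbered 1, but 0 with every deposited entry summed, with the mixed pairs under miR156 (the same table as miR156 and miR157 as 1 family) or with pooling, 2 with total counts only, and 0 to 1 with a library left out. Over all rows of the family fits in VC600 vs VC200, 115 of 284 were called with every deposited entry summed and 116 of 283 with the mixed pairs under miR156. With pooling 115 of 278 were called there, and with total counts only 117 of 284. In VC600 vs VC20, pooling called 124 of 278. Listed genes called in VC200 vs VC20 numbered 0, but 1 (*Gb_00766*) in the fit of 2 groups (104 of 21133 over all genes), and 0 to 1 with a library left out. With trees of the same letter as a replicate block, miR157 was called in VC200 vs VC20 (4.56, adjusted p = 0.0244), VC600 vs VC20 (1.84, 0.0477) and VC600 vs VC200 (-2.72, 0.0302), and so was ath-miR157a-5p (adjusted p = 0.0126, 0.0386 and 0.0199 in edgeR). The calls of miR156 in VC600 vs VC200 (0.0586), far-miR529 in VC200 vs VC20 (0.0698) and ppt-miR529e in VC600 vs VC200 (0.0566) were lost. This made 1, 3 and 1 families, where 5, 91 and 73 of all 284 tested family rows were called. Over all entries 10, 144 and 113 were called in place of 29, 166 and 144. The deviations of same-letter trees had correlations of -0.06 to -0.01 over 328 entries and -0.24 to 0.28 over 21924 genes, and the letters were not taken to pair the trees. Reversed directions were all of uncalled values. In VC600 vs VC20, ath-miR156a-5p was 0.058 with DESeq2, 0.076 with RLE size factors and -0.64 to 0.26 with a library left out. There ath-miR172c was 0.20 with DESeq2, 0.19 with RLE size factors, 0.065 with no filter, 0.15 with the block and -0.73 to 1.47 with a library left out. Also there, ath-miR172a ranged from -1.21 to 0.996 and miR172 from -1.10 to 1.05 with a library left out. For *Gb_23724*, leaving out a library gave -0.10 to 0.45 in VC200 vs VC20, -0.26 to 0.045 in VC600 vs VC20 and -0.55 to 0.0044 in VC600 vs VC200. The causes were not tested. Members of few reads could not be compared at this depth.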
